A study of Mus musculus with 16 samples.

Results

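The monocyte programme genes are 35 genes whose products mature monocytes use, or which mark cells on the way to becoming monocytes. The list was selected on a mix of earlier results of these data and general knowledge, and each gene is represented by the probe set chosen by the highest mean signal over the 16 arrays, among probe sets that carry 1 gene symbol. All 35 genes were measured, out of 22180 genes in the table, and no filter on low signal removed any of them. Monocytes arise in the bone marrow from common myeloid progenitors (CMPs) through more restricted progenitors, among them granulocyte-monocyte progenitors (GMPs) and committed monocyte progenitors (cMoPs). On this path the cells build up lysosomal enzymes, receptors for microbes and dying cells, secreted matrix proteins and the actin-binding machinery of a migrating phagocyte. The signals of gut microbes can reach the marrow, and antibiotic water is a common means of depleting these microbes.

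The study asked how progenitor expression differs between C57BL/6 mice that drank antibiotic water and mice that drank control water for 3 weeks. Antibiotic water held ampicillin, metronidazole, neomycin and vancomycin, each at 1 g/L, and both waters held 2% sucrose. All cells came from bone marrow and were sorted as negative for lineage markers and CD105 and positive for c-Kit. CMPs were CD115- with intermediate CD16/32, GMPs were CD115- with high CD16/32, and cMoPs were CD115+ Ly6C+. The groups were control CMPs (3 arrays), antibiotic CMPs (3), control GMPs (2), antibiotic GMPs (3), control cMoPs (2) and antibiotic cMoPs (3). The labels give no age, and they do not say whether an array holds 1 mouse or a pool, so each p-value measures only how far these samples spread, which may be technical.

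Every value below is a log2 signal as deposited, so a difference of 1 is a doubling of signal, and errors of differences are standard errors from the model over all genes. Across genes, which are not independent replicates, the 14 pairs of arrays within a group correlated at 0.985 to 0.991 and the 106 pairs between groups at 0.961 to 0.991. Of 8 genes of the sort gates and lineage panel, Csf1r and Fcgr3 differed as sorted. Csf1r, which encodes CD115, was 1.95 higher in cMoPs than in GMPs (adjusted p = 2.68e-07). Fcgr3, of CD16/32, was 3.14 higher in GMPs than in CMPs (adjusted p = 3.38e-10). Ly6c2 was 2.41 higher in cMoPs than in CMPs (adjusted p = 6.74e-08), but it did not set cMoPs apart from GMPs. It was already 2.27 higher in GMPs than in CMPs (adjusted p = 1.77e-07), with 0.14 from GMPs to cMoPs (adjusted p = 0.817, not called). Others differed between gates that treat them alike. Kit, sorted as positive in all, was lower in cMoPs than in CMPs (-1.10, adjusted p = 9.92e-08). Eng, which encodes CD105 and was sorted as negative in all, read 8.50 ± 0.22 (SD, n = 3) in control CMPs and was lower in GMPs than in CMPs (-1.62, adjusted p = 6.26e-06). In such bulk samples, fewer cells of a type and less RNA per cell cannot be told apart.

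In the mean of both waters, 31 of the 35 genes were higher in cMoPs than in CMPs at a false discovery rate under 0.05, 1 was lower (Crip1) and 3 were not called (Lyz1, Vcan and Fgr). Of all genes, 9.72% were called higher and 9.2% lower. The median difference of the 35 was 1.405, against 0.044 for all genes. Since the list was drawn up as monocyte genes with these results in view, the share describes the list and supports nothing beyond it. Every cMoP array lay above every CMP array for 29 of the 35, and below for 0, where 6.87% of all genes lay wholly above and 6.33% wholly below. The level averaged over the 35 genes was 7.10 ± 0.015 (SD, n = 3) in control CMPs, 7.84 ± 0.045 (n = 2) in control GMPs and 8.57 ± 0.055 (n = 2) in control cMoPs.

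**Figure D1:**
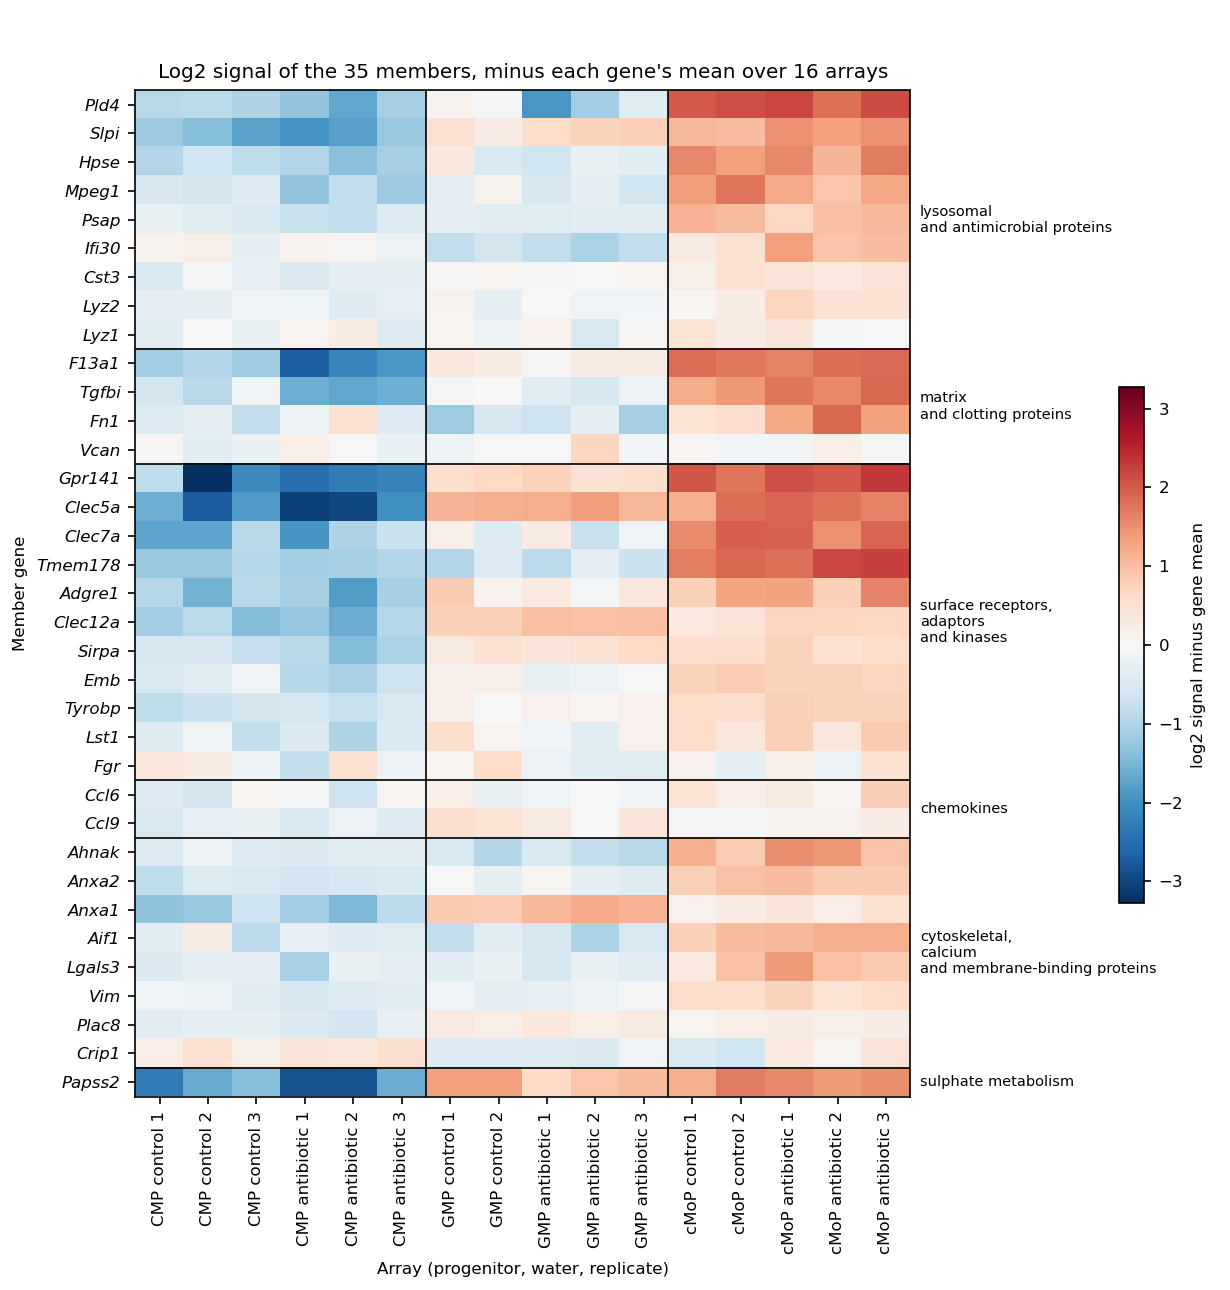
Each row is 1 of the 35 genes and each column 1 of the 16 arrays, with colour for the log2 signal minus that gene's mean over all arrays; vertical lines part CMPs, GMPs and cMoPs. Most rows turn from blue in CMPs to red in cMoPs, while Lyz1, Vcan, Fgr and Crip1 do not.

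The difference was spread over both steps, from CMPs to GMPs and from GMPs to cMoPs. The 3 progenitors were sorted separately. A step, gain or climb below is a difference between sorted populations, and no cells were followed over time. Between CMPs and GMPs, 21 members were higher, 2 were lower (Ifi30 and Crip1) and 12 were not called, against 7.87% of all genes higher and 8.17% lower, with a median of 0.585 (all genes 0.025). Between GMPs and cMoPs, 21 were higher, 1 was lower (Anxa1) and 13 were not called, against 2.6% of all genes higher and 2.82% lower, with a median of 0.74 (all genes 0.013). The GMP arrays enter both comparisons. Put side by side, 12 genes were called higher at both steps, 8 at the first and not called at the second, and 8 not called at the first and higher at the second. Lyz1, Vcan, Fgr and Ccl6 were called at neither step, and Ifi30, Anxa1 and Crip1 each had a pattern of their own. The larger of both steps was that from CMPs to GMPs for 16 genes and that from GMPs to cMoPs for 19.

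**Figure D2:**
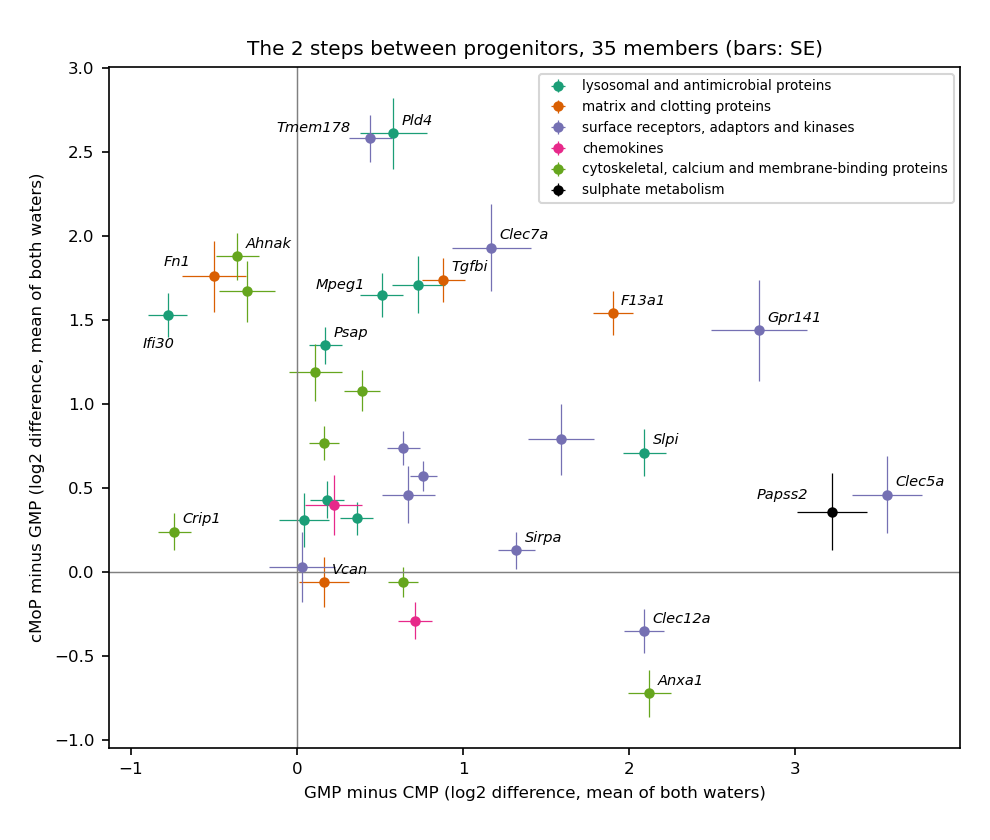
Each point is 1 gene, with its GMP minus CMP difference on the horizontal axis and its cMoP minus GMP difference on the vertical axis, both in log2 with standard errors as bars. Clec5a and Papss2 lie far right (3.55 and 3.22) with small second steps, Pld4 and Tmem178 lie high (2.61 and 2.58) with small first steps, and Anxa1 lies below 0 on the vertical axis.

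The stretches just upstream of 4 genes are shown because their signals were the ones called for antibiotic water below. They are the 150 bases before the RefSeq gene start on build GRCm38.p6, each read 5′ to 3′ on the gene's own strand. Capitals mark GAGGAA, the core of sites that the myeloid transcription factor PU.1 can bind.
F13a1: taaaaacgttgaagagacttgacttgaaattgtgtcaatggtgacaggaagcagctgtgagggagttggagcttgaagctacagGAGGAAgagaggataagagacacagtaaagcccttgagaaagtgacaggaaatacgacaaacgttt
Tgfbi: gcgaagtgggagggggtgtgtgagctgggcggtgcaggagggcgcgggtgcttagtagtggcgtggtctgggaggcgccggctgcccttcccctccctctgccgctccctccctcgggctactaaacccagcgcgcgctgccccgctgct
Mpeg1: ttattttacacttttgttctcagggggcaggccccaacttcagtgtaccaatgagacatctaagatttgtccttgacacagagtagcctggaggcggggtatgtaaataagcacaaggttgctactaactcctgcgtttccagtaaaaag
Crip1: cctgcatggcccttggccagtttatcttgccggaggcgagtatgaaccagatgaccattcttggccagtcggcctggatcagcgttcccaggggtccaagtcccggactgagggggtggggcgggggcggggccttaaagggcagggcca
The F13a1 stretch is chr13:37050245-37050394 (minus strand), that of Tgfbi chr13:56609436-56609585 (plus), that of Mpeg1 chr19:12460620-12460769 (plus) and that of Crip1 chr12:113151862-113152011 (plus). F13a1 has 2 starts in the table, and the one printed holds a single GAGGAA, 66 to 61 bases before the start. The other start, not printed, has no GAGGAA in the 250 bases before it. The F13a1 stretch is 43.3% G and C and that of Mpeg1 44.7%, whereas that of Crip1 is 64.7% and that of Tgfbi 72%.

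GAGGAA and the C/EBP motif TTGCNNAA were searched on both strands in the 250 bases before each start, and the 2 motifs overlapped at 0 places in the members' entries. GAGGAA was found in 12 of the 35 promoter entries of 30 members (34.3%), against 7639 of 32851 entries of all genes (23.3%). TTGCNNAA was found in 6 of 35 (17.1%), against 3142 of 32851 (9.6%). A match describes letters and not a site. Members with GAGGAA were Aif1, Anxa1, Clec12a, Clec5a, Clec7a, Cst3, F13a1, Papss2, Plac8, Psap and Vim, and those with TTGCNNAA were Anxa1, Clec12a, Ifi30, Lyz1, Plac8 and Slpi. Adgre1, Tyrobp, Lst1, Sirpa and Fn1 were not matched to the table.

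Of the 9 lysosomal and antimicrobial genes, 8 were higher in cMoPs than in CMPs and Lyz1 was not called. Pld4, an exonuclease of the endolysosome that degrades single-stranded nucleic acid, had the largest difference. Pld4 read 6.48, 6.49 and 6.39 in control CMPs, 6.09, 5.69 and 6.30 in antibiotic CMPs, 7.51 and 7.31 in control GMPs, 5.47, 6.25 and 7.0 in antibiotic GMPs, 9.40 and 9.50 in control cMoPs and 9.57, 9.18 and 9.53 in antibiotic cMoPs. All 5 cMoP arrays stood far above the 11 others, and the 3 antibiotic GMP arrays were widely spread. The cMoP minus CMP difference was 3.20 ± 0.20 (adjusted p = 9.31e-09). Most of it lay between GMPs and cMoPs (2.61 ± 0.21, adjusted p = 1.25e-06). The first step was not called (0.58, adjusted p = 0.0659).

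The lysozyme genes Lyz2 and Lyz1 are near-identical paralogs whose products cut the bacterial cell wall, Lyz2 in myeloid cells and Lyz1 mainly in Paneth cells of the gut, so their probes can share signal. Lyz2 read 10.03, 10.04 and 10.25 in control CMPs, 10.23, 9.94 and 10.09 in antibiotic CMPs, 10.47 and 10.06 in control GMPs, 10.38, 10.23 and 10.26 in antibiotic GMPs, 10.41 and 10.60 in control cMoPs and 11.07, 10.84 and 10.83 in antibiotic cMoPs. It was bright in every array, and only the cMoP arrays separated from all CMP arrays. Its cMoP minus CMP difference was 0.61 ± 0.10 (adjusted p = 0.000373). Lyz1 read 3.77, 4.10 and 3.90 in control CMPs, 4.19, 4.34 and 3.66 in antibiotic CMPs, 4.19 and 3.94 in control GMPs, 4.25, 3.61 and 4.15 in antibiotic GMPs, 4.54 and 4.38 in control cMoPs and 4.50, 4.07 and 4.09 in antibiotic cMoPs. The 3 progenitors overlapped, and on 6 arrays Lyz1 was below the array's own median. Its difference of 0.35 ± 0.15 (95% interval 0.03 to 0.67) was not called (adjusted p = 0.134).

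Mpeg1, which encodes the pore-forming protein perforin-2 of phagosomes, read 6.32, 6.27 and 6.45 in control CMPs and 5.59, 6.06 and 5.69 in antibiotic CMPs. It read 6.56 and 6.99 in control GMPs, 6.31, 6.56 and 6.23 in antibiotic GMPs, 8.25 and 8.62 in control cMoPs and 8.12, 7.78 and 8.14 in antibiotic cMoPs. Every cMoP array was above every other array, and within CMPs and within cMoPs all antibiotic arrays lay below all control arrays. Mpeg1 was 2.16 ± 0.13 higher in cMoPs than in CMPs (adjusted p = 3.59e-09). Most of that lay between GMPs and cMoPs (1.65, adjusted p = 1.08e-06).

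Other lysosomal genes differed in how their differences were divided over both steps. Slpi, a secreted inhibitor of neutrophil proteases, gained 2.09 ± 0.13 between CMPs and GMPs (adjusted p = 8.08e-09). Between GMPs and cMoPs it gained 0.71 ± 0.14 (adjusted p = 0.00395). Hpse, the heparan-sulphate-cutting heparanase, gained 0.73 and then 1.71 (adjusted p = 0.00361 and 6.35e-06). Psap, the precursor of the saposins that help lysosomal enzymes break down lipids, gained 1.35 ± 0.11 at the second step (adjusted p = 9.11e-07), with 0.17 at the first (adjusted p = 0.336). Cst3, the cysteine protease inhibitor cystatin C, gained 0.36 at the first step (adjusted p = 0.0183). Its second step was nearly as large, at 0.32, but was not called (adjusted p = 0.0968). Ifi30, the lysosomal thiol reductase that opens disulphide bonds of antigens, was lowest in GMPs. It was lower in GMPs than in CMPs, at -0.78 ± 0.12 (adjusted p = 0.000186). In cMoPs it was 1.53 ± 0.13 higher than in GMPs (adjusted p = 1.25e-06).

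Of the 4 genes for matrix and clotting proteins, 3 were higher in cMoPs than in CMPs. F13a1, the A subunit of coagulation factor XIII that crosslinks fibrin, read 7.68, 7.84 and 7.64 in control CMPs and 6.13, 6.67 and 6.91 in antibiotic CMPs. Its signals were 9.16 and 9.05 in control GMPs, 8.84, 9.05 and 9.07 in antibiotic GMPs, 10.65 and 10.54 in control cMoPs and 10.44, 10.63 and 10.66 in antibiotic cMoPs. The 3 progenitors did not overlap, and the waters parted in CMPs alone. F13a1 was 3.44 ± 0.12 higher in cMoPs than in CMPs (10.9-fold, adjusted p = 1.37e-11), with 1.90 gained at the first step and 1.54 at the second (adjusted p = 1.5e-08 and 1.62e-06).

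Tgfbi, a secreted matrix protein induced by TGF-beta, read 6.44, 6.13 and 6.91 in control CMPs and 5.45, 5.35 and 5.44 in antibiotic CMPs. It read 6.98 and 7.04 in control GMPs, 6.65, 6.47 and 6.85 in antibiotic GMPs, 8.27 and 8.47 in control cMoPs and 8.80, 8.61 and 8.92 in antibiotic cMoPs. Antibiotic arrays lay below control arrays in CMPs and in GMPs and above them in cMoPs. Its cMoP minus CMP difference was 2.62 ± 0.13 (adjusted p = 4.68e-10). The larger part lay between GMPs and cMoPs (1.74, adjusted p = 7.59e-07).

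Fn1, the matrix protein fibronectin, was 1.76 ± 0.21 higher in cMoPs than in GMPs (adjusted p = 3.83e-05), while GMPs stood at -0.50 ± 0.19 against CMPs, which was not called (adjusted p = 0.104). Vcan, the proteoglycan versican, read 3.40, 2.98 and 3.14 in control CMPs, 3.58, 3.35 and 3.13 in antibiotic CMPs, 3.19 and 3.37 in control GMPs, 3.36, 4.06 and 3.25 in antibiotic GMPs, 3.41 and 3.26 in control cMoPs and 3.26, 3.57 and 3.31 in antibiotic cMoPs. It was below the array median on all 16 arrays, and the 3 progenitors overlapped. Its cMoP minus CMP difference was 0.09 (95% interval -0.22 to 0.41, adjusted p = 0.737), and the table has no detection calls with which to say whether the probe set measured any versican RNA.

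The 11 surface receptors, adaptors and kinases had the widest range. In cMoPs against CMPs, 10 were higher and Fgr was not called, and 10 were already higher in GMPs than in CMPs. Gpr141, an orphan G-protein-coupled receptor, read 5.66, 3.22 and 4.40 in control CMPs, 3.99, 4.21 and 4.32 in antibiotic CMPs, 7.02 and 7.15 in control GMPs, 7.25, 6.97 and 7.01 in antibiotic GMPs, 8.53 and 8.25 in control cMoPs and 8.61, 8.51 and 8.82 in antibiotic cMoPs. The progenitors formed 3 separate bands, and the control CMPs were spread over more than the whole range of the antibiotic CMPs. Its cMoP minus CMP difference of 4.22 ± 0.29 (18.6-fold, adjusted p = 2.11e-08) was the largest of the 35. Of this, 2.78 lay between CMPs and GMPs (adjusted p = 3.05e-06). On 2 CMP arrays Gpr141 was below the array's own median, so the size of the difference rests partly on dim signals.

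Fgr, a Src-family kinase of phagocytes, read 4.10, 4.01 and 3.57 in control CMPs, 2.99, 4.26 and 3.58 in antibiotic CMPs, 3.85 and 4.37 in control GMPs, 3.57, 3.42 and 3.36 in antibiotic GMPs, 3.90 and 3.47 in control cMoPs and 3.96, 3.58 and 4.26 in antibiotic cMoPs. No order of the progenitors was visible, and Fgr was below the array median on 12 of 16 arrays. The cMoP minus CMP difference was 0.06 (95% interval -0.37 to 0.49, adjusted p = 0.892).

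Among the C-type lectin receptors, Clec5a, which signals through the adaptor encoded by Tyrobp, was 3.55 ± 0.21 higher in GMPs than in CMPs (adjusted p = 6.28e-09) and 0.46 further in cMoPs (adjusted p = 0.35, not called). Clec12a, an inhibitory receptor, was 2.09 higher in GMPs than in CMPs (adjusted p = 3.73e-09), and cMoPs stood at -0.35 against GMPs (adjusted p = 0.155). Clec7a, the beta-glucan receptor dectin-1, climbed at both steps, by 1.17 and 1.93 (adjusted p = 0.00272 and 0.000139). All GMP arrays were above all CMP arrays for Clec5a and Clec12a, and not for Clec7a. On 3 CMP arrays Clec5a was below the array's own median, so the size of its difference rests partly on dim signals.

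Tmem178, a membrane protein of the endoplasmic reticulum, was 0.44 higher in GMPs than in CMPs (adjusted p = 0.0364) and 2.58 ± 0.14 higher in cMoPs than in GMPs (adjusted p = 2.93e-08). Adgre1, the F4/80 antigen of macrophages, gained 1.59 and then 0.79 (adjusted p = 2.97e-05 and 0.0427), and was below the array median on 6 arrays. Sirpa, the receptor for the "do not eat me" signal CD47, gained 1.32 at the first step (adjusted p = 2.39e-07) and 0.13 at the second (adjusted p = 0.694). Emb, the transporter chaperone embigin, gained 0.64 and 0.74 (adjusted p = 0.000197 and 0.00023). Tyrobp, the signalling adaptor DAP12, gained 0.76 and 0.57 (adjusted p = 5.25e-06 and 0.000511). Lst1, a small myeloid membrane protein, gained 0.67 at the first step (adjusted p = 0.00705) with 0.46 at the second (adjusted p = 0.152).

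Both chemokine genes were higher in cMoPs than in CMPs by small amounts. Ccl6 read 4.93, 4.76 and 5.44 in control CMPs, 5.32, 4.69 and 5.45 in antibiotic CMPs, 5.59 and 5.12 in control GMPs, 5.25, 5.34 and 5.27 in antibiotic GMPs, 5.82 and 5.59 in control cMoPs and 5.62, 5.42 and 6.18 in antibiotic cMoPs. The 3 progenitors overlapped, with the highest signals in cMoPs. The cMoP minus CMP difference was 0.62 ± 0.17 (adjusted p = 0.0184), and without cMoP control 1 it was 0.57 and no longer called (adjusted p = 0.0869).

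Ccl9 read 9.34, 9.58 and 9.65 in control CMPs, 9.35, 9.66 and 9.44 in antibiotic CMPs, 10.38 and 10.30 in control GMPs, 10.15, 9.87 and 10.26 in antibiotic GMPs, 9.83 and 9.82 in control cMoPs and 9.96, 9.97 and 10.13 in antibiotic cMoPs. Its level was highest in GMPs, and every GMP and cMoP array was above every CMP array. It was 0.71 ± 0.10 higher in GMPs than in CMPs (adjusted p = 8.54e-05) and 0.42 ± 0.10 higher in cMoPs than in CMPs (adjusted p = 0.00696).

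Of the 8 genes for cytoskeletal, calcium-binding and membrane-binding proteins, 7 were higher in cMoPs than in CMPs. Ahnak, a giant scaffold protein beneath the cell membrane, read 5.42, 5.70 and 5.45 in control CMPs, 5.40, 5.50 and 5.53 in antibiotic CMPs, 5.37 and 4.90 in control GMPs, 5.37, 5.09 and 4.97 in antibiotic GMPs, 7.03 and 6.69 in control cMoPs and 7.40, 7.32 and 6.80 in antibiotic cMoPs. All GMP arrays lay below all CMP arrays, and all cMoP arrays above both. It was 1.52 ± 0.13 higher in cMoPs than in CMPs (adjusted p = 4.04e-07), and the GMP minus CMP difference of -0.36 was not called (adjusted p = 0.0856).

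Crip1, a small LIM-domain protein, was the only member highest in CMPs. Its signals were 11.40, 11.68 and 11.39 in control CMPs, 11.58, 11.54 and 11.70 in antibiotic CMPs, 10.76 and 10.77 in control GMPs and 10.76, 10.71 and 11.06 in antibiotic GMPs. In cMoPs it read 10.70 and 10.54 on control water and 11.52, 11.27 and 11.62 on antibiotic water. Control cMoPs sat with the GMPs, and antibiotic cMoPs overlapped the CMPs. Over both waters Crip1 was lower in cMoPs than in CMPs, at -0.50 ± 0.10 (adjusted p = 0.00192), and the difference was -0.87 on control water and -0.14 on antibiotic water.

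The other 6 of this role differed in the step at which they were called. The calcium and actin binder Aif1, the galectin gene Lgals3 and the intermediate filament gene Vim gained 1.67, 1.19 and 0.77 between GMPs and cMoPs, with adjusted p of 1.45e-05, 0.00033 and 9.42e-05, and were not called at the first step. Anxa2, a membrane-binding annexin, gained 0.39 and 1.08 (adjusted p = 0.0243 and 1.74e-05). Anxa1, an annexin that dampens inflammation, was 2.12 ± 0.13 higher in GMPs than in CMPs (adjusted p = 8e-09) and lower in cMoPs than in GMPs, at -0.72 ± 0.14 (adjusted p = 0.00434). Plac8, a small cysteine-rich protein, was 0.64 higher in GMPs than in CMPs (adjusted p = 5.64e-05), and the second step was -0.06 (adjusted p = 0.831).

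Papss2, which makes the sulphate donor used to sulphate glycans, read 4.04, 4.69 and 4.95 in control CMPs, 3.50, 3.50 and 4.72 in antibiotic CMPs, 7.70 and 7.69 in control GMPs, 7.01, 7.26 and 7.38 in antibiotic GMPs, 7.52 and 8.06 in control cMoPs and 7.92, 7.75 and 7.87 in antibiotic cMoPs. CMPs stood far below the other progenitors, and GMPs and cMoPs overlapped. On 3 CMP arrays Papss2 was below the array's own median. It was 3.22 ± 0.21 higher in GMPs than in CMPs (adjusted p = 1.93e-08), and the second step of 0.36 was not called (adjusted p = 0.502).

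Few of the members were called for antibiotic water. At the study's false discovery rate of under 0.2, 2 of 35 were lower in CMPs (F13a1 and Tgfbi) and 0 higher, where 0.018% of all genes were called lower and 0.0225% higher. In GMPs 0 were called by limma in either direction, against 0.0496% of all genes higher and 0.0225% lower, and 3 (Mpeg1, Pld4 and Fgr) had an unadjusted p under 0.05, as did 7.5% of all genes; the trended and robust fit also called 0. In cMoPs 1 was higher (Crip1) and 0 lower, against 0.0902% higher and 0.0406% lower. With calls this rare, a count of 1 or 2 members says little about the list as a whole. In CMPs 8 of 35 had an unadjusted limma p under 0.05, against 7.2% of all genes. In cMoPs 6 of 35 did, against 6.2%. With 2 or 3 arrays a group, a member that was not called may still have changed.

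F13a1 fell by 1.15 in antibiotic CMPs, at -1.15 ± 0.17 (95% interval -1.50 to -0.80, adjusted p = 0.0301), with all 3 antibiotic arrays below all 3 control arrays. Its difference was -0.12 in GMPs and -0.02 in cMoPs (adjusted p = 0.932 and 0.994). Tgfbi fell by 1.08 in CMPs, at -1.08 ± 0.17 (95% interval -1.44 to -0.72, adjusted p = 0.0685), and stood at -0.35 in GMPs and 0.41 in cMoPs (adjusted p = 0.725 and 0.803). Both falls have the same size when only the 6 CMP arrays enter the fit, where the spread is estimated from fewer arrays and neither was called (adjusted p = 0.516 and 0.555). Tgfbi was also not called without CMP antibiotic 1 (-1.10, adjusted p = 0.338) or CMP antibiotic 2 (-1.05, adjusted p = 0.201), and without CMP antibiotic 3 Emb (-0.65) and Papss2 (-1.06) joined the calls.

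Crip1 rose by 0.85 ± 0.15 in antibiotic cMoPs (95% interval 0.53 to 1.17, adjusted p = 0.122), with all 3 antibiotic arrays above both control arrays, and stood at 0.12 in CMPs and 0.08 in GMPs (adjusted p = 0.895 and 0.946). The call was lost with only the cMoP arrays (adjusted p = 0.507) and without CMP antibiotic 2 (0.208), cMoP control 1 (0.449), cMoP antibiotic 1 (0.386) or cMoP antibiotic 3 (0.335), while the difference stayed between 0.77 and 0.95. The largest difference in cMoPs was that of Fn1, whose arrays read 5.53 and 5.63 on control water and 6.35, 6.97 and 6.40 on antibiotic water. The waters did not overlap, and the difference of 0.99 (95% interval 0.38 to 1.61) was not called (adjusted p = 0.587). Ifi30 stood at 0.70 in cMoPs (adjusted p = 0.448).

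In GMPs the largest difference was that of Pld4, at -1.17 ± 0.30, with all antibiotic arrays below both control arrays and no call (adjusted p = 0.386). Without GMP antibiotic 3, its highest antibiotic array, it was -1.55 and called (adjusted p = 0.0373).

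**Figure D3:**
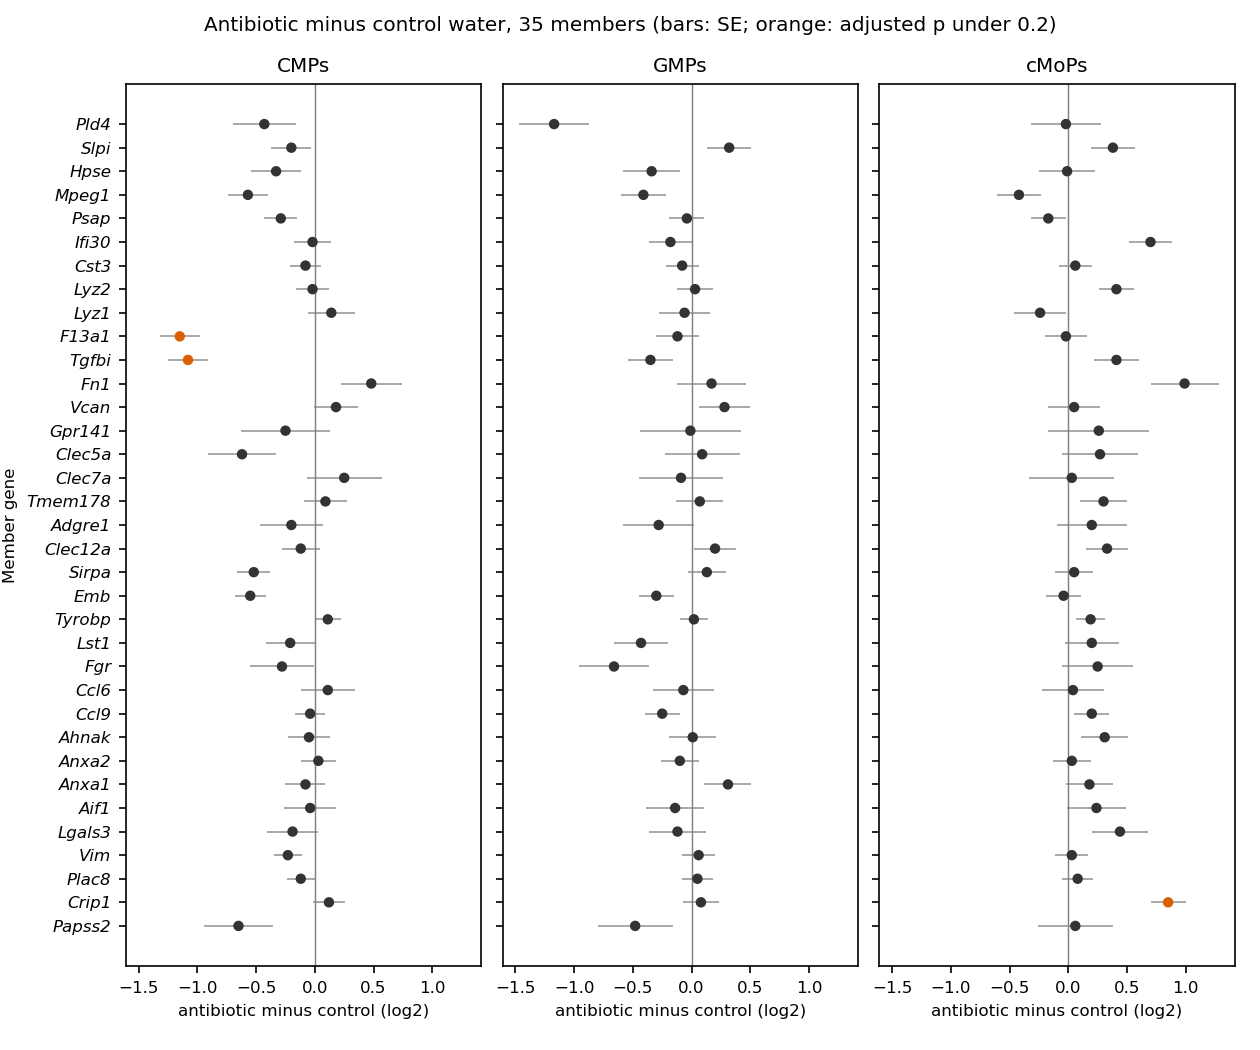
For each of the 35 genes, the antibiotic minus control difference in log2 is shown in CMPs, GMPs and cMoPs, with standard errors as bars and adjusted p under 0.2 in orange. F13a1 and Tgfbi stand at -1.15 and -1.08 in CMPs and Crip1 at 0.85 in cMoPs, and no gene is orange in GMPs.

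In the mean of the 3 progenitors, Mpeg1 (-0.47 ± 0.11, adjusted p = 0.156) and F13a1 (-0.43 ± 0.10, adjusted p = 0.183) were lower and Crip1 (0.35 ± 0.09, adjusted p = 0.192) was higher, against 0.243% of all genes lower and 0.271% higher. For Mpeg1 the differences in CMPs, GMPs and cMoPs were -0.57, -0.41 and -0.42, none of them called by itself. These mean calls lie close to the threshold. Mpeg1 lost its call on leaving out CMP control 1 or 3, CMP antibiotic 1 or 3, GMP control 2, GMP antibiotic 1, cMoP control 2, or cMoP antibiotic 1 or 2 (adjusted p = 0.209 to 0.3). F13a1 kept its call only without CMP antibiotic 3, GMP antibiotic 3 or cMoP control 2, and Crip1 only without CMP control 2 or cMoP antibiotic 2; any other array left out ended it (adjusted p up to 0.393 and 0.319).

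**Figure D4:**
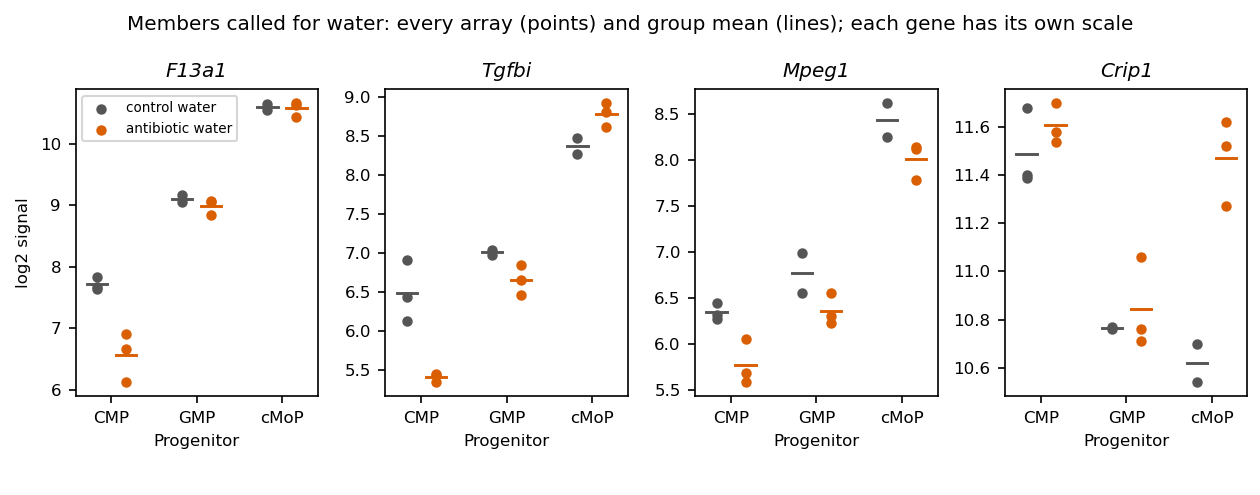
Log2 signal of F13a1, Tgfbi, Mpeg1 and Crip1 in each array by progenitor and water, with group means as lines and a scale of its own in each panel. The waters separate for F13a1 and Tgfbi in CMPs (control 7.64 to 7.84 and 6.13 to 6.91, antibiotic 6.13 to 6.91 and 5.35 to 5.45) and for Crip1 in cMoPs (10.54 to 10.70 against 11.27 to 11.62); they also separate for Tgfbi in GMPs (antibiotic lower) and cMoPs (higher) and for Mpeg1 in CMPs and cMoPs (lower).

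An F test of the interaction asked whether water acted differently in the 3 progenitors. By limma 0 of the 35 members passed, against 0.00451% of all genes, and 6 had an unadjusted p under 0.05 (Tgfbi, F13a1, Crip1, Ifi30, Sirpa and Pld4), as did 5.8% of all genes. The Tgfbi effect was 1.49 ± 0.26 higher in cMoPs than in CMPs and the F13a1 effect 1.13 ± 0.25 higher, with adjusted interaction p of 0.269 and 0.553. The trended and robust fit called both (adjusted p = 0.162 each), and without CMP control 2 Tgfbi was called at 0.104. These are the settings, of those tried, in which a member passed.

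Most of the 35 differences were below 0 in CMPs and above 0 in cMoPs. In CMPs 26 of 35 were below 0, with a median of -0.12, where 51.5% of all genes were below 0 and their median was -0.007. In GMPs 21 were below 0, with a median of -0.068, where 52.2% of all genes were below 0 and their median was -0.013. In cMoPs 28 were above 0, with a median of 0.188, where 47.8% of all genes were above 0 and their median was -0.012. The mean over the 35 genes was 7.10, 7.08 and 7.11 in control CMPs and 6.83, 6.85 and 7.03 in antibiotic CMPs. It was 7.87 and 7.81 in control GMPs and 7.71, 7.71 and 7.77 in antibiotic GMPs, and 8.54 and 8.61 in control cMoPs and 8.81, 8.67 and 8.81 in antibiotic cMoPs. Control and antibiotic arrays did not overlap in any progenitor, the antibiotic arrays being lower in CMPs and GMPs and higher in cMoPs. Means over marker lists of other cells also parted by water in each progenitor, as given below. Genes of 1 array share that array and are not independent replicates, so no p is given for this mean. The list was chosen with earlier results of these data known. The signs, the mean and the counts by gene below therefore describe the list and support nothing beyond it.

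Counted by gene, the antibiotic arrays lay wholly below the control arrays for 7 members and wholly above for 0 in CMPs, where 6.36% of all genes lay below and 5.21% above. In GMPs 6 lay below and 3 above, where 12.6% of all genes lay below and 10.4% above. In cMoPs 10 lay above and 1 (Mpeg1) below, where 9.59% of all genes lay above and 11.4% below. The 7 in CMPs were Mpeg1, Pld4, F13a1, Tgfbi, Sirpa, Emb and Vim, and the 10 in cMoPs were Lyz2, Ifi30, Slpi, Tgfbi, Fn1, Clec12a, Tyrobp, Ccl9, Crip1 and Aif1.

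Other genes of the monocyte lineage were read in the same way. Of 17 measured, 14 were higher in cMoPs than in CMPs and 0 lower, with the largest differences in Cybb (2.86), Ly86 (2.56), Gda (2.53) and Ms4a6c (2.08). Gda was highest in GMPs, at 3.24 over CMPs (adjusted p = 2.43e-08), and cMoPs stood at -0.71 against GMPs (adjusted p = 0.107, not called). After antibiotics 12 of 17 were below 0 in CMPs and 14 of 17 above 0 in cMoPs, and none was called in any single progenitor. The chemokine receptor genes Ccr2 and Cx3cr1 were lower in the mean of the 3 progenitors, at -0.47 and -0.49 (adjusted p = 0.18 and 0.188). Of 9 transcription factor genes of this lineage, 5 were higher and 1 lower in cMoPs than in CMPs, and Klf4 (3.35) and Irf8 (1.93) had the largest gains. None of the 9 was called for water, and Spi1, which encodes PU.1, stood at 0.02 in CMPs (adjusted p = 0.987).

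Markers of other cell types moved alongside in places, and their part in the results above was not tested. Of 9 genes of primary granules and early neutrophils, 9 were higher in GMPs than in CMPs. The transcription factor genes Cebpe and Gfi1 were lower in cMoPs than in GMPs. The granule protein genes Mpo, Elane, Prtn3 and Ctsg stood at -0.08, -0.27, -0.12 and -0.16 there, none called. In CMPs 7 of the 9 were below 0 after antibiotics (median -0.247), none called. In GMPs and in cMoPs 6 of the 9 were above 0 (medians 0.022 and 0.072), none called. Their mean ranged from 8.67 to 9.20 in control and 8.29 to 9.07 in antibiotic CMPs. In the same arrays the mean of 10 erythroid genes ranged from 8.59 to 8.73 and from 8.71 to 8.96, with 7 of 10 above 0 and none called. The mean of 12 dendritic cell and MHC class II genes did not overlap in CMPs, at 5.28 to 5.45 in control and 5.52 to 5.61 in antibiotic arrays, with 8 of 12 above 0 and none called. Csf1r, a gate gene, stood at -0.58 in antibiotic CMPs (adjusted p = 0.425). In GMPs the antibiotic arrays were wholly higher for the erythroid mean (5.41 to 5.56 in control, 5.81 to 5.90 in antibiotic arrays; 8 of 10 above 0, Car1 called). The same held for the mean of 8 megakaryocyte genes (5.67 to 5.83 against 5.88 to 6.02; 6 of 8 above 0, none called) and of 13 late neutrophil genes (7.64 to 7.85 against 7.90 to 8.07; 9 of 13 above 0, Chil3 called).

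In cMoPs 9 of the 13 late neutrophil genes were above 0 after antibiotics, and their mean was 7.29 to 7.47 in control and 7.57 to 7.89 in antibiotic arrays. The largest of these differences were those of Stfa1 (1.4, adjusted p = 0.554), Fcnb (1.17, adjusted p = 0.14, called) and Chil3 (1.06, adjusted p = 0.248), while the granule genes Ltf and Ngp stood at -0.36 and -0.29 (adjusted p = 0.862 and 0.869). The erythroid mean was 5.13 on both control cMoP arrays and 5.16 to 5.27 on antibiotic arrays, and that of 12 stem and multipotent progenitor genes 5.46 to 5.47 and 5.22 to 5.42. The mean over 11 macrophage genes was 4.01 to 4.61 over all arrays, close to the array medians of 4.04 to 4.17. Of these genes Vcam1 was 2.47 higher in GMPs than in CMPs (adjusted p = 3.02e-09) and stood at -2.69 in cMoPs against GMPs (adjusted p = 2.93e-08). In cMoPs against CMPs 0 were higher and 2 lower, Spic (-1.59, adjusted p = 0.000184) and C1qb (-0.69, adjusted p = 0.0414).

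**Figure D5:**
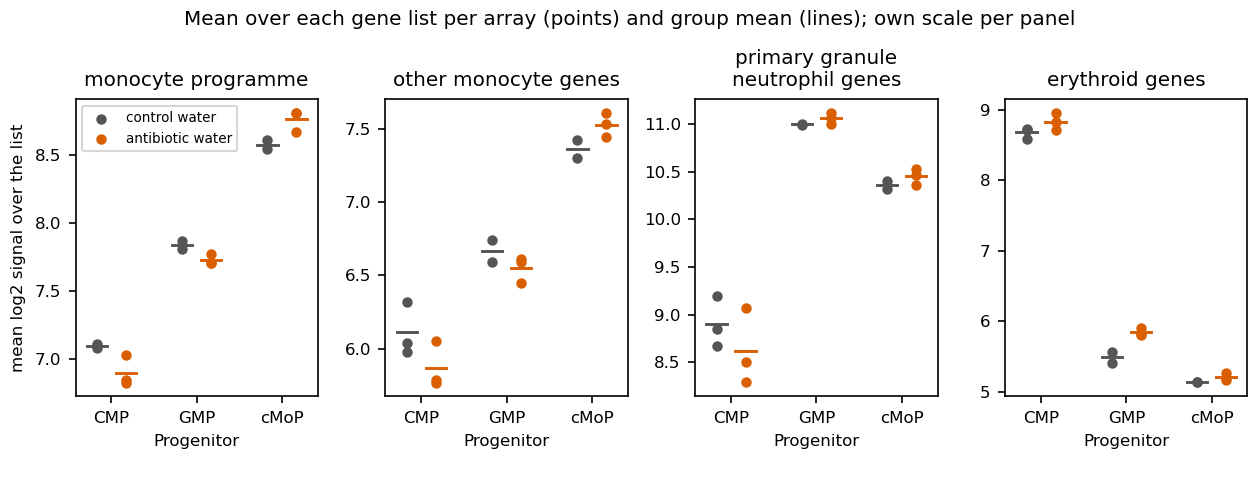
Mean log2 signal over 4 gene lists in each array (points) with group means (lines), by progenitor and water, with a scale of its own in each panel. The mean of the 35 monocyte programme genes separates the waters in each progenitor, and that of primary granule and early neutrophil genes in none. The erythroid mean separates them in GMPs and cMoPs (antibiotic higher) and the mean of other monocyte genes in cMoPs.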

How the data were processed

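Expression was measured on 16 arrays. The authors deposited log2 signals of probe sets. The submitters' processing notes name Partek and Transcriptome Analysis Console; how signals were summarised and normalized is not given in the sources available for this work. Quartiles of the arrays were close (medians 4.04 to 4.17), so values were used as deposited. Of 41345 probe sets, 23521 had 1 gene symbol, 1814 several and 16010 none; the brightest per gene left 22180 genes. The members and lists were chosen with earlier results of these data known. Models were fitted over all genes (limma 3.58.1, R 4.3.3), 1 mean per group, with 10 residual degrees of freedom and eBayes. Adjusted p-values are Benjamini-Hochberg over all genes, two-sided; calls were at 0.05 between progenitors and 0.2, the rate of the series' design text, for water and its interaction. Values in every array are given for members called for water, the largest and smallest cMoP minus CMP difference of each role, and Lyz1 and Lyz2. Upstream sequences were planned for members called in CMPs; those of Mpeg1 and Crip1 were added after the calls were seen. No batch is given in the labels. The scripts were tested on simulated data.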

Additional observations from a re-analysis of the deposited data

Results flagged for a closer look

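The Tgfbi antibiotic effect in cMoPs exceeded that in CMPs by 1.49, and the 5 cMoP arrays and 6 CMP arrays parted by water in opposite directions. The interaction F test of limma did not call it (adjusted p = 0.269). The Ccl9 effect in cMoPs exceeded that in GMPs by 0.44, again with every array of the progenitors parted in opposite directions, and the interaction was not called (adjusted p = 0.903). Groups of 2 or 3 arrays were not tested for single outlying arrays.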

How the results depend on the processing

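The counts of members called between progenitors stayed within 1.5 times of the reported ones under all 22 alternatives: leaving out 1 array gave 31 to 32 for cMoPs against CMPs, 20 to 23 for GMPs against CMPs and 20 to 22 for cMoPs against GMPs. The counts for water moved more. Emb joined the calls in CMPs (-0.55) with the trended and robust fit (adjusted p = 0.0504) and with only genes above the median brightness (adjusted p = 0.187). In CMPs the reported 2 became 0 with only CMP arrays and 1 to 4 on leaving out 1 array; in GMPs 0 became 0 to 1; in cMoPs 1 became 0 with only cMoP arrays and 0 to 1 on leaving out 1 array. For the mean of the 3 progenitors the reported 3 became 5 with the replicate number as a block (Mpeg1, F13a1, Tgfbi, Emb and Fn1, while Crip1 at 0.32 lost its call, adjusted p = 0.272), 5 with the trended and robust fit, 6 with only brighter genes (32 members among 11088 genes), 1 (Mpeg1) with the 2-way analysis of variance, and 0 to 3 on leaving out 1 array. For the interaction, 0 became 2 with the trended and robust fit and 0 to 1 on leaving out 1 array. The causes of these changes were not tested, except that the fits within 1 progenitor hold fewer arrays. Deviations of same-numbered arrays from their group means correlated weakly. Over 15 pairs of 1 water r was -0.049 to 0.104, mostly above 0 and 1 over 0.1. Over 21 pairs of different waters r was -0.028 to 0.029. With 2 or 3 arrays a group, such values cannot tell whether arrays of 1 number share mice, and the reported fit used no block. With the block by number the cMoP call was Fn1 (1.15, adjusted p = 0.0395) in place of Crip1 (0.81, adjusted p = 0.269). In CMPs the count stayed 2. The uncalled cMoP minus CMP difference of Fgr changed sign, to -0.02 with the replicate block within water, and on leaving out 1 array lay between -0.1 and 0.22, with -0.02 without CMP control 3, -0.1 without CMP antibiotic 1, -0.05 without cMoP control 1 and -0.02 without cMoP antibiotic 3. For the 4 members with 2 probe sets (Cst3, Emb, Hpse and Vim), both gave the same direction between progenitors, while the Hpse water differences disagreed in GMPs (-0.34 and 0.1) and cMoPs (-0.01 and 0.31), as did those of Vim in GMPs (0.06 and -0.17). Precision is limited by the number of arrays, and dim probe sets such as Vcan and Fgr have no detection call.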

Other observations

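Outside the members, few marker genes of other cells were called for antibiotic water. Chil3, which encodes a chitinase-like secreted protein, was 1.19 higher in antibiotic GMPs (adjusted p = 0.184) and 0.89 higher in the mean of the 3 progenitors (adjusted p = 0.0141). Car1, a carbonic anhydrase of erythroid cells, was 1.78 higher in antibiotic GMPs (adjusted p = 0.00308) and 0.86 higher in the mean (adjusted p = 0.00517), and Fcnb, a ficolin of myeloid granules, was 0.62 higher in the mean (adjusted p = 0.119). In the mean of the 3 progenitors, H2-Ab1 of MHC class II stood 0.43 higher (adjusted p = 0.192) and the stem cell regulator Hoxa9 at -0.56 (adjusted p = 0.154).

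Stem and multipotent progenitor genes ran against the monocyte programme between progenitors: 9 of 12 were lower and 1 higher in cMoPs than in CMPs, and so were 9 of 10 erythroid and 6 of 8 megakaryocyte genes lower. Of 12 dendritic cell and MHC class II genes 4 were lower and none higher. The B lineage list (9 genes; 1 higher, 2 lower) and the T and NK cell list (10 genes; 1 higher, 1 lower) stood at means of 4.33 to 4.98 and 3.96 to 4.38 over the arrays, near the array medians.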
